A study of Mus musculus with 12 samples.

Results

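Macrophages recycle the iron of senescent red cells, and their iron genes answer both to iron itself and to inflammatory signals. The 8 genes described here carry out the main steps: Tfrc, Slc11a1, Slc11a2, Steap3 and Steap4 act in uptake and in moving iron out of vesicles, Fth1 and Ftl1 encode the ferritin shell that stores iron, and Slc40a1 encodes ferroportin, the iron exporter. They were chosen by name, from knowledge of iron handling, and are 8 of the 43453 genes in the deposited table. For each gene, the transcript with the highest total count was used. For Fth1 this is a non-coding entry of 1511 bases, so its levels per kb and its ratio to Ftl1 were taken instead from its mRNA transcript of 942 bases, whose count was 99.86% of the other.

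The study cultured bone marrow-derived macrophages (BMDMs) of C57BL/6 mice to ask how macrophage TLR4, the receptor for lipopolysaccharide (LPS), shapes the response to LPS. The 12 libraries carry 4 column headings with 3 libraries each: tlr4f/f and tlr4f/f-lysM-cre, each as LPS- and as LPS+. All cells carried floxed tlr4 alleles and were grown for 7 days in 50 ng/mL of M-CSF. LPS+ stands for 6 h in LPS at 1 µg/mL, and LPS- for no treatment. The tlr4f/f-lysM-cre genotype adds a Cre driven from the lysM (Lyz2) locus, which is active in the myeloid lineage, neutrophils included, so that tlr4 is lost only as far as Cre acts in a cell.

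Tlr4, Lyz2 and Il1b went against these headings. Tlr4, the deleted gene, had 77 to 146 CPM (counts scaled to a common library size by TMM) under the heading LPS- tlr4f/f and 94.7 to 117 CPM under LPS- tlr4f/f-lysM-cre, but 24.5 to 31.2 CPM under LPS+ tlr4f/f and 24.4 to 27.4 CPM under LPS+ tlr4f/f-lysM-cre. Lyz2, the locus that carries Cre, was between 5953 and 23331 CPM in all libraries headed LPS- and between 10.4 and 75.3 CPM in all headed LPS+. Il1b, a cytokine gene that LPS induces, was between 1633 and 8224 CPM in both groups headed tlr4f/f-lysM-cre and between 0.075 and 6.95 CPM in both groups headed tlr4f/f. If the middle headings, LPS- tlr4f/f-lysM-cre with LPS+ tlr4f/f, were exchanged, low Tlr4 and low Lyz2 would fall on the tlr4f/f-lysM-cre genotype and high Il1b on LPS. The labels do not settle which is right, so libraries are named here by their headings and the main results are given in both readings. As headed, the columns tlr4f/f-lysM-cre against tlr4f/f compare the genotypes, without LPS and with LPS. With the headings exchanged, the same contrasts compare LPS with no LPS within tlr4f/f and within tlr4f/f-lysM-cre. In the same way the columns LPS+ against LPS- show the effect of LPS as headed and the effect of genotype with the headings exchanged. The contrast of LPS+ tlr4f/f-lysM-cre with LPS- tlr4f/f and the interaction of genotype and LPS are identical in both readings.

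Counts per library, over the transcript used for each gene, were between 33577440 and 56445989. The macrophage markers Adgre1, Csf1r, Cd68 and Itgam were present in every library, at 407 to 4383 CPM, and all 8 markers of that list were detected in every group. The libraries headed LPS- were less uniform than those headed LPS+. The summed level of 6 fibroblast and stroma markers was 657, 60.2 and 9.07 CPM in LPS- tlr4f/f replicates 1, 2 and 3 and 922, 136 and 1462 CPM in LPS- tlr4f/f-lysM-cre replicates 1, 2 and 3, against 20.4 to 43.8 CPM in the 6 libraries headed LPS+. Neutrophil markers summed to 186 CPM in LPS- tlr4f/f-lysM-cre replicate 3 and to at most 27.2 CPM elsewhere, and erythroid and lymphocyte markers to at most 4.32 and 1.12 CPM. In bulk RNA, fewer cells of a type and less RNA per cell cannot be told apart.

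Several of these genes are read by the same iron sensor. Iron regulatory proteins bind a short hairpin in the mRNA, the iron-responsive element (IRE), when iron is low. An IRE in the 5′ UTR then holds back translation, and an IRE in the 3′ UTR protects the mRNA from decay, so that iron changes ferritin and ferroportin mainly at the protein level and Tfrc at the mRNA level. The hairpins are shown because they divide the members into those whose RNA counts can follow this sensor and those whose counts largely cannot. GENCODE M21 transcripts on GRCm38 were searched for the loop CAGTG followed by A, C or T. The loop had to be closed by 5 paired bases above an unpaired C and at least 3 below it. A match was found in 5 of the 8 members, each in a UTR. Anywhere in a protein-coding transcript, 46 of 21877 protein-coding genes (0.21%) held a match. The members were chosen as iron genes, so these shares are not a test. The sequences below are written 5′ to 3′ on the mRNA strand as DNA letters, with the loop of 6 bases in capitals.
Fth1 5′ UTR, chr19:9982732-9982760, plus strand: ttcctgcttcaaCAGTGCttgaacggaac
Ftl1 5′ UTR, chr7:45459779-45459807, minus strand: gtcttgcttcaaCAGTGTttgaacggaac
Slc40a1 5′ UTR, chr1:45925465-45925493, minus strand: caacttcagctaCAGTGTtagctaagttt
Slc11a2 3′ UTR, chr15:100395152-100395181, minus strand: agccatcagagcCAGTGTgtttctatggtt
Tfrc 3′ UTR, chr16:32631219-32631247, plus strand: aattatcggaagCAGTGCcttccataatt
The Tfrc 3′ UTR held 4 such matches, of which the first is shown. The Slc11a2 match had 1 bulged base and lay in a single annotated transcript, so that this gene makes mRNAs with and without an IRE. No match was found for Slc11a1, Steap3 or Steap4.

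Levels between genes can be compared per length. Under LPS- tlr4f/f, the ferritin transcripts stood far above the rest, with Fth1 at 13317 ± 2190.0 and Ftl1 at 11038 ± 1535 CPM per kb (SD, n = 3). With the Fth1 entry of 1511 bases in place of the mRNA, an alternative chosen after the data were seen, Fth1 would lie below Ftl1 here, at 0.752 ± 0.0776 times its level per kb (SD, n = 3). Slc11a1 followed at 129 ± 48.4 CPM per kb, Steap3 at 30 ± 7.38, Slc11a2 at 23 ± 7.16, Tfrc at 16.7 ± 6.73 and Slc40a1 at 6.83 ± 4.59. Steap4 was near the limit of detection at 0.0217 ± 0.0105 CPM per kb. Steap3, Slc11a2 and Tfrc overlapped in range between neighbours of this order. Under LPS- tlr4f/f-lysM-cre the order of the middle genes differed, with Slc11a2 at 94.1 ± 25.1, Steap3 at 4.26 ± 1.65 and Steap4 at 3.11 ± 1.12 CPM per kb. The plot of the members by library shows these shifts.

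**Figure D1:**
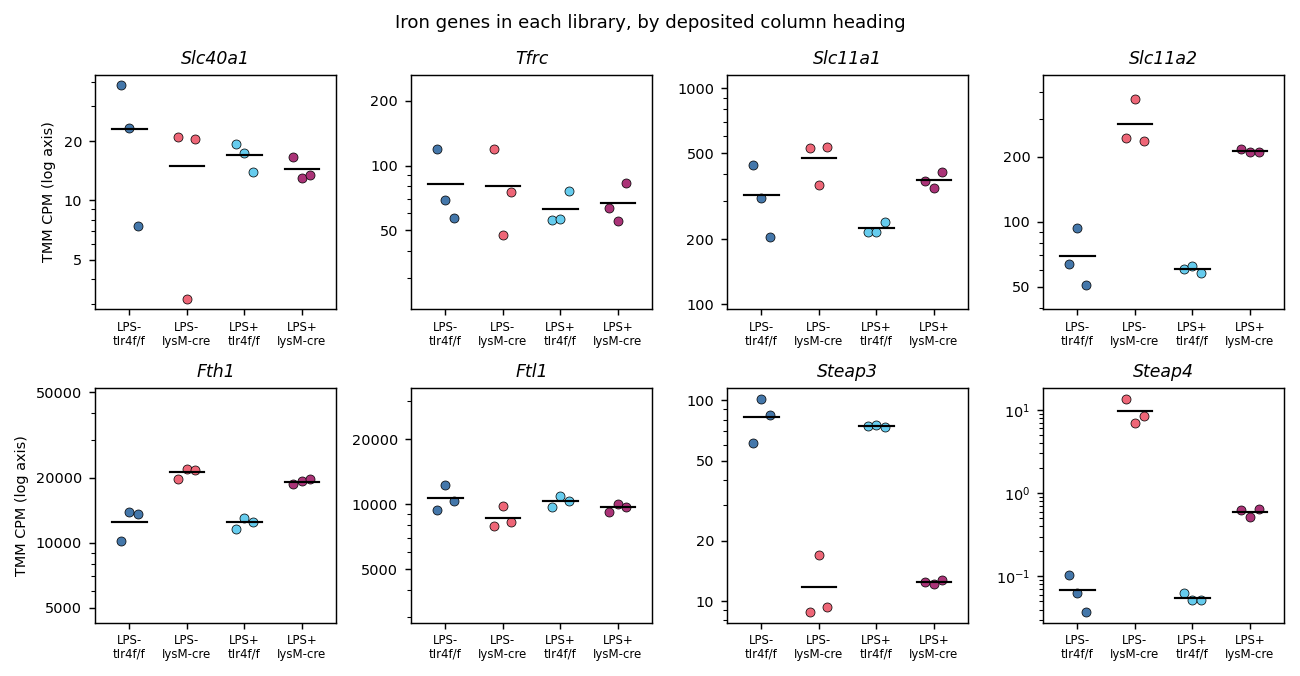
TMM-normalised CPM (log axis, a separate scale in each panel) of the 8 iron genes in each of the 12 libraries, by deposited column heading, with a bar at the mean of each group of 3. Steap3, Slc11a2, Fth1 and Steap4 separate the tlr4f/f-lysM-cre columns from the tlr4f/f columns, a trait whose share over all genes was not counted. Steap4 differs most between the 2 tlr4f/f-lysM-cre groups, and Slc40a1 and Tfrc overlap throughout.

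Between the tlr4f/f-lysM-cre and tlr4f/f columns headed LPS-, 3 of the 8 members differed: Slc11a2 and Steap4 were higher in the tlr4f/f-lysM-cre columns and Steap3 was lower. Over all 14649 genes tested, 17.9% were called higher and 19.4% lower at an adjusted p below 0.05, and 17.1% met the DEG criteria of the study (fold change above 2 and adjusted p below 0.01), which the same 3 members met. Among the columns headed LPS+, 5 of 8 members differed in the fit without pairs. Slc11a1, Slc11a2, Fth1 and Steap4 were higher and Steap3 was lower in the tlr4f/f-lysM-cre columns. There 30.5% of the 14551 genes tested were called higher, 31.0% lower and 21.8% as DEGs, and 3 members were DEGs (Slc11a2, Steap3 and Steap4). A gene called in these contrasts was therefore common, and the count of members is read against that. The median log2 difference of the members was 0.27 in the first contrast and 0.38 in the second, against -0.08 and -0.02 over all genes tested. As headed these contrasts are tlr4f/f-lysM-cre against tlr4f/f without and with LPS, and with the headings exchanged they are the LPS response of tlr4f/f and of tlr4f/f-lysM-cre BMDMs.

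Between the LPS+ and LPS- columns of tlr4f/f, none of the 7 members tested differed by edgeR's quasi-likelihood test. None had an unadjusted p below 0.05 in it, a threshold for which the share of all genes was not taken. DESeq2 and limma voom also called 0. Of all 14712 genes tested, 0.605% were called higher and 0.673% lower, and 0% were DEGs. Steap4 was too low for a test there. Without LPS- tlr4f/f replicate 3 a single member, Slc11a1, was called (log2 fold change -0.74, edgeR adjusted p = 0.0376). Between the LPS+ and LPS- columns of tlr4f/f-lysM-cre, Steap4 alone of 8 members differed, where 12.5% of 14245 genes were called higher, 14.2% lower and 6.09% as DEGs. This count depended on LPS- tlr4f/f-lysM-cre replicate 2. Without that library 4 members were called: Steap4, and also Slc40a1 (-0.52, edgeR adjusted p = 0.0441), Slc11a1 (-0.50, edgeR adjusted p = 0.0264) and Steap3 (0.45, edgeR adjusted p = 0.0438). The share of all genes called was taken only with every library included. The counts of members with a library left out therefore cannot be read against it. The median log2 difference of the members was -0.19 in the first of these contrasts and -0.2 in the second, against -0.03 and 0.03 over all genes tested.

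In the contrast that both readings share, LPS+ tlr4f/f-lysM-cre against LPS- tlr4f/f, 4 of 8 members differed, with Slc11a2, Fth1 and Steap4 higher and Steap3 lower. Of the 14595 genes tested, 20.4% were called higher, 20.4% lower and 13.4% as DEGs, and the median was 0.05 for the members and -0.05 for all genes tested. The interaction of genotype and LPS was called for Steap4 alone, in a fit where 4.13% of 15792 genes were called with a positive and 2.86% with a negative interaction and 0.994% as DEGs.

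**Figure D2:**
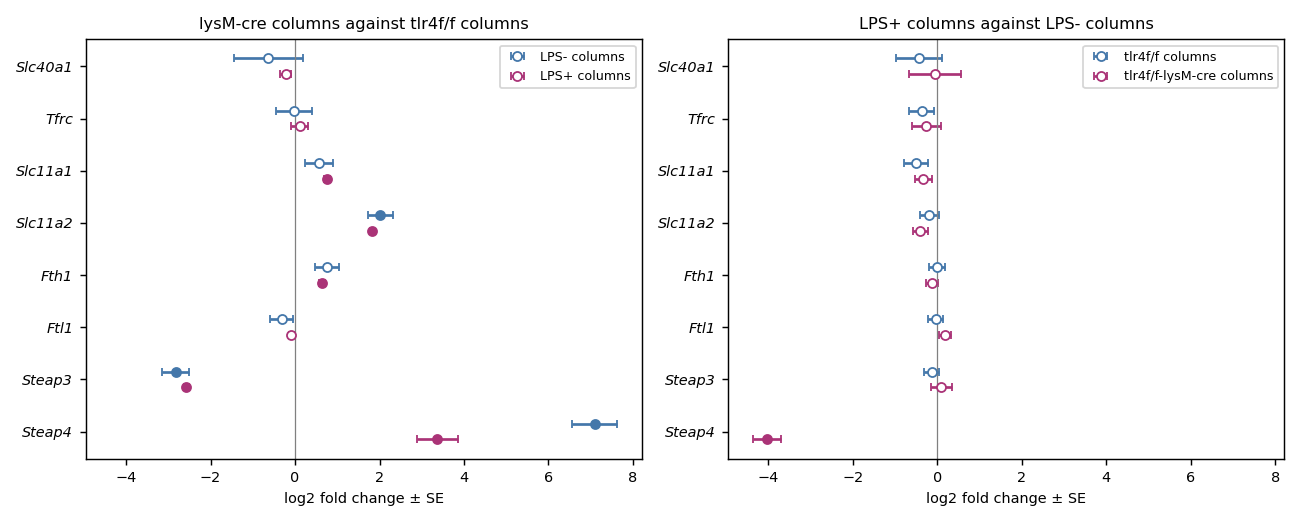
Log2 fold change with its standard error for each member (edgeR, 3 libraries per group), for the tlr4f/f-lysM-cre against tlr4f/f columns on the left and the LPS+ against LPS- columns on the right, with filled points for an adjusted p below 0.05. The filled points on the left run from -2.83 for Steap3 to 7.09 for Steap4, and on the right only Steap4 at -4.02 is filled, while Steap4 was not tested between the tlr4f/f columns.

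Steap3 and Steap4 belong to one family of metalloreductases, which reduce ferric iron so that it can pass through a divalent metal transporter. Steap3 is the reductase of the transferrin cycle endosome. Its level was 61.5, 102 and 84.2 CPM under the heading LPS- tlr4f/f and 74.8, 75.7 and 73.5 CPM under LPS+ tlr4f/f. Under LPS- tlr4f/f-lysM-cre it was 8.83, 16.9 and 9.39 CPM, and under LPS+ tlr4f/f-lysM-cre 12.5, 12.1 and 12.7 CPM. All 6 libraries of the tlr4f/f-lysM-cre columns were thus below all 6 of the tlr4f/f columns. The difference was 7.11-fold among the LPS- columns (log2 fold change -2.83, SE 0.324, edgeR adjusted p = 0.00159) and 5.97-fold among the LPS+ columns (-2.58, SE 0.058, edgeR adjusted p = 4.3e-12). LPS+ and LPS- columns overlapped, with log2 differences of -0.13 (SE 0.181) in tlr4f/f and 0.1 (SE 0.253) in tlr4f/f-lysM-cre. As headed, Steap3 was lower in tlr4f/f-lysM-cre than in tlr4f/f with and without LPS. With the headings exchanged, Steap3 fell with LPS in both genotypes. The interaction was not called (0.23, SE 0.333, edgeR adjusted p = 0.735).

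Steap4 is known as an inflammation-induced member of the same family. Its counts were 6, 4 and 2 under the heading LPS- tlr4f/f and 3, 2 and 3 under LPS+ tlr4f/f. Under LPS- tlr4f/f-lysM-cre they were 512, 226 and 273, and under LPS+ tlr4f/f-lysM-cre 27, 19 and 29. The 4 groups thus fell into 3 levels without overlap: near 0 in both tlr4f/f groups, intermediate in LPS+ tlr4f/f-lysM-cre at 0.595 ± 0.0646 CPM, and highest in LPS- tlr4f/f-lysM-cre at 9.76 ± 3.53 CPM (SD, n = 3). From the summed counts, the level under LPS- tlr4f/f-lysM-cre was 145 times that under LPS- tlr4f/f (95% exact interval from counting error, 82.5 to 281). The level under LPS+ tlr4f/f-lysM-cre was 10.8 times that under LPS+ tlr4f/f (5.2 to 25.9).

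The fitted log2 fold changes of Steap4 were 7.09 (SE 0.53, edgeR adjusted p = 0.000605) among the LPS- columns and 3.37 (SE 0.493, edgeR adjusted p = 7.08e-05) among the LPS+ columns. Between the LPS+ and LPS- columns of tlr4f/f-lysM-cre it was -4.02 (SE 0.332, edgeR adjusted p = 0.00125). The interaction was -3.74 (SE 0.605, edgeR adjusted p = 0.008). As headed, Steap4 was higher in untreated tlr4f/f-lysM-cre than in untreated tlr4f/f BMDMs, and LPS lowered it in tlr4f/f-lysM-cre. With the headings exchanged, LPS raised Steap4 in both genotypes, and the rise was smaller in tlr4f/f-lysM-cre than in tlr4f/f BMDMs. In both readings LPS+ tlr4f/f-lysM-cre was above LPS- tlr4f/f (3.08, SE 0.489, edgeR adjusted p = 0.00449).

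The 250 bases before the RefSeq start of Steap4 (GRCm38.p6, chr5:7960222-7960471, plus strand) are shown because Steap4 had the widest range of the members.
Steap4 promoter: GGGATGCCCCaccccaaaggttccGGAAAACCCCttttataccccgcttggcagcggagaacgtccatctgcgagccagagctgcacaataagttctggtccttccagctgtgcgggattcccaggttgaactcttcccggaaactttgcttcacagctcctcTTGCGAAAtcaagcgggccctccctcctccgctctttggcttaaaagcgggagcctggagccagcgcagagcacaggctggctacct
Capitals mark letters that match the NF-kB consensus, at -250 and -226 from the start, and the C/EBP motif TTGCNNAA, at -87. Both strands were searched, and the marked motifs do not overlap. In the same 250 bases of 32851 mouse promoters, 3.9% held the first motif and 9.56% the second. Steap3, which moved in the opposite direction, also held a match to each in 1 of its 4 promoters, at -176 and -223, and Ftl1, which was not called, held the NF-kB consensus at -15. Fth1 held the C/EBP motif at -129 and -58 in 1 of its 2 promoters. No match to either was found in the promoters of Slc11a1 and Tfrc, and the promoters of Slc40a1 and Slc11a2 were not analysed here. The core of the antioxidant response element, TGACNNNGC, was also searched. It was held by 10.2% of mouse promoters and by no promoter of the members analysed.

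Slc11a2 encodes DMT1, the divalent metal transporter that carries reduced iron out of the endosome. It had 64.1, 93.3 and 51 CPM under the heading LPS- tlr4f/f and 60.5, 62.6 and 58.2 CPM under LPS+ tlr4f/f. Under LPS- tlr4f/f-lysM-cre it had 245, 372 and 237 CPM, and under LPS+ tlr4f/f-lysM-cre 217, 211 and 209.8 CPM. Every tlr4f/f-lysM-cre library was above every tlr4f/f library. The difference was 4.06-fold among the LPS- columns (log2 fold change 2.02, SE 0.295, edgeR adjusted p = 0.00334) and 3.54-fold among the LPS+ columns (1.83, SE 0.0508, edgeR adjusted p = 2e-11). Between the LPS+ and LPS- columns of tlr4f/f-lysM-cre the libraries did not overlap, but the difference did not pass the test (-0.4, SE 0.176, edgeR adjusted p = 0.137), nor did the interaction (-0.22, SE 0.306, edgeR adjusted p = 0.72). As headed, Slc11a2 was higher in tlr4f/f-lysM-cre with and without LPS, and with the headings exchanged it rose with LPS in both genotypes.

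Slc11a2 is counted on transcripts with different 3′ ends. The transcript of 4373 bases ends in the 3′ UTR that holds the IRE shown above, and the transcript of 3025 bases, which had the highest total, ends in another 3′ UTR without it. These transcripts share most of their reads, so the ratio of their counts is not the share of each mRNA. The count on the IRE transcript was 81.3%, 85.3% and 82.8% of that on the other under the heading LPS- tlr4f/f and 84.4%, 83.4% and 84.8% under LPS+ tlr4f/f. It was 95.5%, 95% and 93.6% under LPS- tlr4f/f-lysM-cre and 91.1%, 90.8% and 92.8% under LPS+ tlr4f/f-lysM-cre. The ratio was higher in all 6 libraries of the tlr4f/f-lysM-cre columns than in all 6 of the tlr4f/f columns. For each of these contrasts the two-sided exact permutation p was 0.1, the smallest that 3 against 3 libraries allow, and 0.125 after adjustment over 10 comparisons of ratios. On the log2 scale the ratio differed by 0.19 among the LPS- columns and by 0.12 among the LPS+ columns. As headed, it was higher in tlr4f/f-lysM-cre than in tlr4f/f with and without LPS, and with the headings exchanged it was higher after LPS in both genotypes.

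Slc11a1 encodes NRAMP1, the phagosomal metal transporter that withdraws iron and manganese from ingested microbes. C57BL/6 mice carry a non-functional allele of it, so its mRNA is not a measure of transport here. It had 443, 311 and 204 CPM under the heading LPS- tlr4f/f and 530.4, 356 and 537 CPM under LPS- tlr4f/f-lysM-cre, which overlapped. Under LPS+ tlr4f/f it had 216, 216 and 240.2 CPM, and under LPS+ tlr4f/f-lysM-cre 373, 344 and 411 CPM, which did not overlap. The second difference passed the test, at 1.69-fold (log2 fold change 0.76, SE 0.0712, edgeR adjusted p = 1.43e-06), and the first did not (0.57, SE 0.332, edgeR adjusted p = 0.222). The interaction was 0.18 (SE 0.348, edgeR adjusted p = 0.809), so the contrasts were not shown to differ. As headed, Slc11a1 was higher in tlr4f/f-lysM-cre than in tlr4f/f with LPS, and with the headings exchanged it rose with LPS in tlr4f/f-lysM-cre.

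Ferritin stores iron in a shell of heavy chains, which oxidise it, and light chains, which favour its mineral core. Fth1, the heavy chain, had 10169.9, 13893 and 13582 CPM under the heading LPS- tlr4f/f and 11653, 13095 and 12549 CPM under LPS+ tlr4f/f. It had 19798, 21968 and 21808 CPM under LPS- tlr4f/f-lysM-cre and 18666, 19269.6 and 19673 CPM under LPS+ tlr4f/f-lysM-cre. Every library of the tlr4f/f-lysM-cre columns was above every library of the tlr4f/f columns. Among the LPS+ columns the difference was 1.56-fold (log2 fold change 0.64, SE 0.0616, edgeR adjusted p = 1.74e-06). Among the LPS- columns it was of like size but missed the threshold (0.75, SE 0.287, edgeR adjusted p = 0.0826), and it passed with DESeq2 (0.83, adjusted p = 0.000213) and limma voom (0.77, adjusted p = 0.0305). With edgeR it passed when libraries were paired by replicate number (0.76, adjusted p = 0.0453), with summed transcripts (0.75, adjusted p = 0.0308) and in the single fit of all 12 libraries (0.76, adjusted p = 0.00305). As headed, Fth1 was higher in tlr4f/f-lysM-cre than in tlr4f/f with LPS, and with the headings exchanged it rose with LPS in tlr4f/f-lysM-cre. LPS+ tlr4f/f-lysM-cre was above LPS- tlr4f/f by 0.62 (SE 0.189, edgeR adjusted p = 0.0415), a call that was lost without any of the LPS+ tlr4f/f-lysM-cre replicates (edgeR adjusted p 0.121 without replicate 1 and 0.135 without replicate 2 or 3).

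Ftl1, the light chain, had 9412, 12334 and 10376 CPM under the heading LPS- tlr4f/f and 7953, 9790.1 and 8239 CPM under LPS- tlr4f/f-lysM-cre. Under the LPS+ headings it had 9696, 10959 and 10381 CPM in tlr4f/f and 9252, 10052 and 9758 CPM in tlr4f/f-lysM-cre. The groups overlapped, and no contrast was called. The log2 difference between the tlr4f/f-lysM-cre and tlr4f/f columns was -0.32 (SE 0.265) under LPS- and -0.085 (SE 0.0634) under LPS+. A fit that paired libraries by replicate number called the second (-0.084, edgeR adjusted p = 0.0118). Reads of both ferritin genes can also match processed copies elsewhere in the genome, so their counts depend on how such reads were assigned.

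The ratio of the chains was also taken within each library. Per kb of transcript, with the Fth1 mRNA of 942 bases, Fth1 was 1.11, 1.16 and 1.35 times Ftl1 under the heading LPS- tlr4f/f and 1.23, 1.23 and 1.24 times under LPS+ tlr4f/f. It was 2.56, 2.31 and 2.72 times Ftl1 under LPS- tlr4f/f-lysM-cre and 2.07, 1.97 and 2.07 times under LPS+ tlr4f/f-lysM-cre. The tlr4f/f-lysM-cre columns were above the tlr4f/f columns without overlap, and LPS- tlr4f/f-lysM-cre was above LPS+ tlr4f/f-lysM-cre, also without overlap. The exact permutation p (two-sided) was 0.1 for each of these contrasts, the smallest possible, and 0.7 between the tlr4f/f groups. As headed, the heavy chain weighed more in tlr4f/f-lysM-cre BMDMs, and with the headings exchanged it weighed more after LPS in both genotypes. With the Fth1 entry of 1511 bases, the ratio was 0.694 to 0.84 under LPS- tlr4f/f, 0.767 to 0.776 under LPS+ tlr4f/f, 1.44 to 1.7 under LPS- tlr4f/f-lysM-cre and 1.23 to 1.3 under LPS+ tlr4f/f-lysM-cre. The choice of entry thus set whether the ratio lay above or below 1 in the tlr4f/f columns, while the columns differed in the same direction, again without overlap. A ratio does not depend on the scaling of the libraries.

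**Figure D3:**
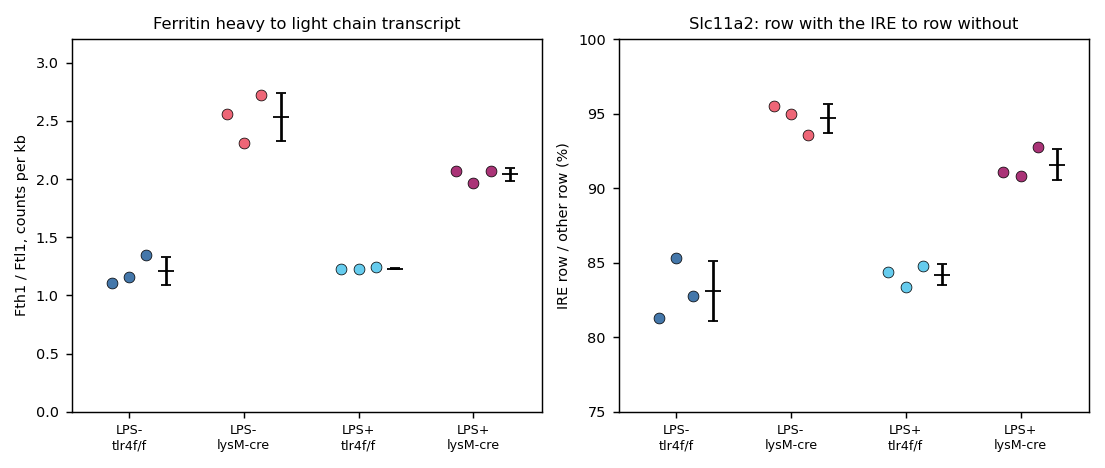
Left, ratio of Fth1 (mRNA of 942 bases) to Ftl1 counts per kb in each library, and right, the count on the Slc11a2 transcript with the IRE as a percentage of that on the transcript without it (axis from 75%), with the mean and SD of 3 libraries beside the points. Both ratios are higher in the 6 libraries of the tlr4f/f-lysM-cre columns, with means of 2.53 and 2.04 against 1.21 and 1.23 for ferritin and of 94.7% and 91.6% against 83.1% and 84.2% for Slc11a2.

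Slc40a1 encodes ferroportin, the only known cellular iron exporter, and its mRNA varied more among the replicates headed LPS- than between groups. It had 38.4, 23.4 and 7.44 CPM in LPS- tlr4f/f replicates 1, 2 and 3 and 20.9, 3.18 and 20.5 CPM in LPS- tlr4f/f-lysM-cre replicates 1, 2 and 3. Under the LPS+ headings it had 19.3, 17.5 and 13.9 CPM in tlr4f/f and 16.6, 13 and 13.5 CPM in tlr4f/f-lysM-cre. All 4 groups overlapped, and no contrast was called, with log2 differences between -0.68 and 0.4. The lowest library of each LPS- group was also the lowest in that group for the fibroblast and stroma markers, at 9.07 and 136 CPM, whose part in the spread was not tested. Between the LPS+ columns, tlr4f/f-lysM-cre against tlr4f/f gave -0.22 (SE 0.131, edgeR adjusted p = 0.174). This became a call when libraries were paired by replicate number (-0.21, edgeR adjusted p = 0.0441), with no filter beyond 1 count (-0.24, edgeR adjusted p = 0.0381) and without LPS+ tlr4f/f replicate 3 (-0.36, edgeR adjusted p = 0.0186). Against LPS- tlr4f/f, LPS+ tlr4f/f-lysM-cre was different by -0.68 (SE 0.542, not called), and without LPS- tlr4f/f replicate 3 the value was -1.10 (edgeR adjusted p = 0.0134).

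Tfrc encodes the transferrin receptor, which brings in transferrin-bound iron and rises in dividing cells. It had 119.5, 69.3 and 57.2 CPM under the heading LPS- tlr4f/f and 119, 47.7 and 75.5 CPM under LPS- tlr4f/f-lysM-cre. Under the LPS+ headings it had 56, 56.3 and 76.1 CPM in tlr4f/f and 63.9, 55.4 and 82.8 CPM in tlr4f/f-lysM-cre. Groups overlapped throughout and no contrast was called, with log2 differences between the tlr4f/f-lysM-cre and tlr4f/f columns of -0.025 (SE 0.415) under LPS- and 0.11 (SE 0.204) under LPS+. The SE of the first leaves room for a change of about the size seen for Fth1. The summed level of 8 markers of dividing cells was 1219 to 1372 CPM in LPS+ tlr4f/f and 541 to 720.5 CPM in LPS+ tlr4f/f-lysM-cre, and under the LPS- headings 135 to 757 CPM in tlr4f/f and 97.4 to 262 CPM in tlr4f/f-lysM-cre. In LPS- tlr4f/f-lysM-cre replicate 1 (262 CPM), LPS+ tlr4f/f replicate 3 (1372 CPM) and LPS+ tlr4f/f-lysM-cre replicate 3 (720.5 CPM), the library with the most of these markers in its group also had the most Tfrc. In LPS- tlr4f/f, replicate 2 had the most markers (757 CPM) and replicate 1 the most Tfrc. The part of dividing cells in the level of Tfrc was not tested.

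The members were also read against 47 other genes of iron and heme handling, from hepcidin control to iron-sulfur cluster assembly. Of these, 38 could be tested between the tlr4f/f-lysM-cre and tlr4f/f columns under LPS-, where 11 were higher and 9 lower in the tlr4f/f-lysM-cre columns, against 17.9% higher and 19.4% lower over all genes. Under LPS+, 34 could be tested, with 17 higher and 13 lower, against 30.5% and 31.0% over all genes. The medians of the list were 0.2 and 0.18 on the log2 scale, against -0.08 and -0.02 over all genes tested. These counts and medians describe the list, which was not tested against other genes. Between the LPS+ and LPS- columns of tlr4f/f, 1 of 34 was called (Hmox2, lower, where 0.673% of all genes were lower), and of tlr4f/f-lysM-cre 9 of 34 were higher and 6 lower, against 12.5% and 14.2% of all genes. In the contrast shared by both readings 11 of 35 were higher and 8 lower, against 20.4% of all genes in each direction. The interaction was called for 1 of 38 (Bach1, -0.54), where 2.86% of all genes had a negative call. Hepcidin itself (Hamp) had 0 counts in 9 libraries and 2, 10 and 3 counts under LPS- tlr4f/f-lysM-cre.

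The genes that differed most are named by role. Among plasma carriers and ferroxidases, Cp, the ceruloplasmin that oxidises iron leaving through ferroportin, had 0.187 to 9.19 CPM under LPS- tlr4f/f and 0.486 to 0.715 CPM under LPS+ tlr4f/f, but 247 to 278 CPM under LPS- tlr4f/f-lysM-cre and 52.9 to 60.7 CPM under LPS+ tlr4f/f-lysM-cre. Its log2 difference was 5.79 (SE 1.2, edgeR adjusted p = 0.012) among the LPS- columns and 6.58 (SE 0.12, edgeR adjusted p = 9.24e-13) among the LPS+ columns. Trf, transferrin, was lower among the LPS+ columns by a small amount (-0.32, edgeR adjusted p = 0.0094). Lcn2, which binds bacterial siderophores, followed Cp, with 385 to 733 CPM under LPS- tlr4f/f-lysM-cre, 41.2 to 56.7 CPM under LPS+ tlr4f/f-lysM-cre and at most 5.2 CPM in the tlr4f/f columns (7.41, edgeR adjusted p = 0.0104, and 7.32, edgeR adjusted p = 6.2e-05). The neutrophil markers, which could bear on Lcn2, were at 27.2, 14.6 and 186 CPM in the 3 LPS- tlr4f/f-lysM-cre libraries, where Lcn2 was 733, 385 and 472 CPM, and their part was not tested. Slc39a14, an importer of iron not bound to transferrin, was higher in both contrasts (2.8, edgeR adjusted p = 0.00353, and 2.6, edgeR adjusted p = 1.39e-10). Cp, Lcn2 and Slc39a14 shared with Steap4 the order LPS- tlr4f/f-lysM-cre, then LPS+ tlr4f/f-lysM-cre, then the tlr4f/f columns.

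In heme handling, Hmox1, the enzyme that frees iron from heme, had 1107 to 1684 CPM under LPS- tlr4f/f-lysM-cre and 1786 to 1948 CPM under LPS+ tlr4f/f-lysM-cre, against 165 to 627 CPM in the tlr4f/f columns. Its log2 difference was 1.68 (SE 0.513, edgeR adjusted p = 0.0423) among the LPS- columns and 2.16 (SE 0.0555, edgeR adjusted p = 1.03e-11) among the LPS+ columns. Flvcr2, a transporter of the heme exporter family, was low throughout, with at most 1.8 CPM, and higher in the tlr4f/f-lysM-cre columns (3.96, edgeR adjusted p = 0.0134, and 2.69, edgeR adjusted p = 0.000984). Cd163, the receptor for haptoglobin and haemoglobin, was lower in both contrasts. Its log2 differences were -2.76 (SE 0.835, edgeR adjusted p = 0.0422) among the LPS- columns and -1.35 (SE 0.258, edgeR adjusted p = 0.00198) among the LPS+ columns. Of the 9 genes of this role, 3 were higher and 3 lower among the LPS- columns (17.9% and 19.4% of all genes) and 5 higher and 4 lower among the LPS+ columns (30.5% and 31.0% of all genes).

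Among regulators, 4 of 6 were higher in each contrast, where 17.9% of all genes were higher among the LPS- and 30.5% among the LPS+ columns, and Bach1, a heme-sensing repressor, was lower among the LPS+ columns. Spic, the factor that drives ferroportin in red pulp macrophages, had 3.7 to 25.8 CPM under LPS- tlr4f/f-lysM-cre and 2.61 to 4.95 CPM under LPS+ tlr4f/f-lysM-cre, against at most 0.4 CPM in the tlr4f/f columns (5.56, edgeR adjusted p = 0.0197, and 3.93, edgeR adjusted p = 0.000243). Slc40a1 was not called in the same contrasts. Nfe2l2, which drives ferritin and Hmox1 under oxidative stress, was higher by 1.24 (edgeR adjusted p = 0.00322) and 1.31 (edgeR adjusted p = 1.79e-09). Ireb2 and Fbxl5, an iron regulatory protein and the ubiquitin ligase subunit that removes it, were both higher as well, and Aco1, the other iron regulatory protein, was not called. Hfe, a partner of Tfrc in hepcidin control, was lower in both contrasts (-1.35, edgeR adjusted p = 0.00207, and -1.49, edgeR adjusted p = 3.04e-08). Pcbp1, an iron chaperone that loads ferritin, was higher by a small amount among the LPS+ columns (0.24, edgeR adjusted p = 0.000803).

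The mitochondrial genes split. Slc25a37, the mitochondrial iron importer, was higher in both contrasts (2.29, edgeR adjusted p = 0.000916, and 2.53, edgeR adjusted p = 2.07e-12), and Alas1, the first enzyme of heme synthesis, was higher among the LPS+ columns (1.81, edgeR adjusted p = 9.12e-11). Of the 10 genes, 1 was higher and 5 lower among the LPS- columns, against 17.9% and 19.4% of all genes, and 4 higher and 6 lower among the LPS+ columns, against 30.5% and 31.0%. With the headings exchanged, all the differences named here between the tlr4f/f-lysM-cre and tlr4f/f columns are differences between LPS and no LPS.

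**Figure D4:**
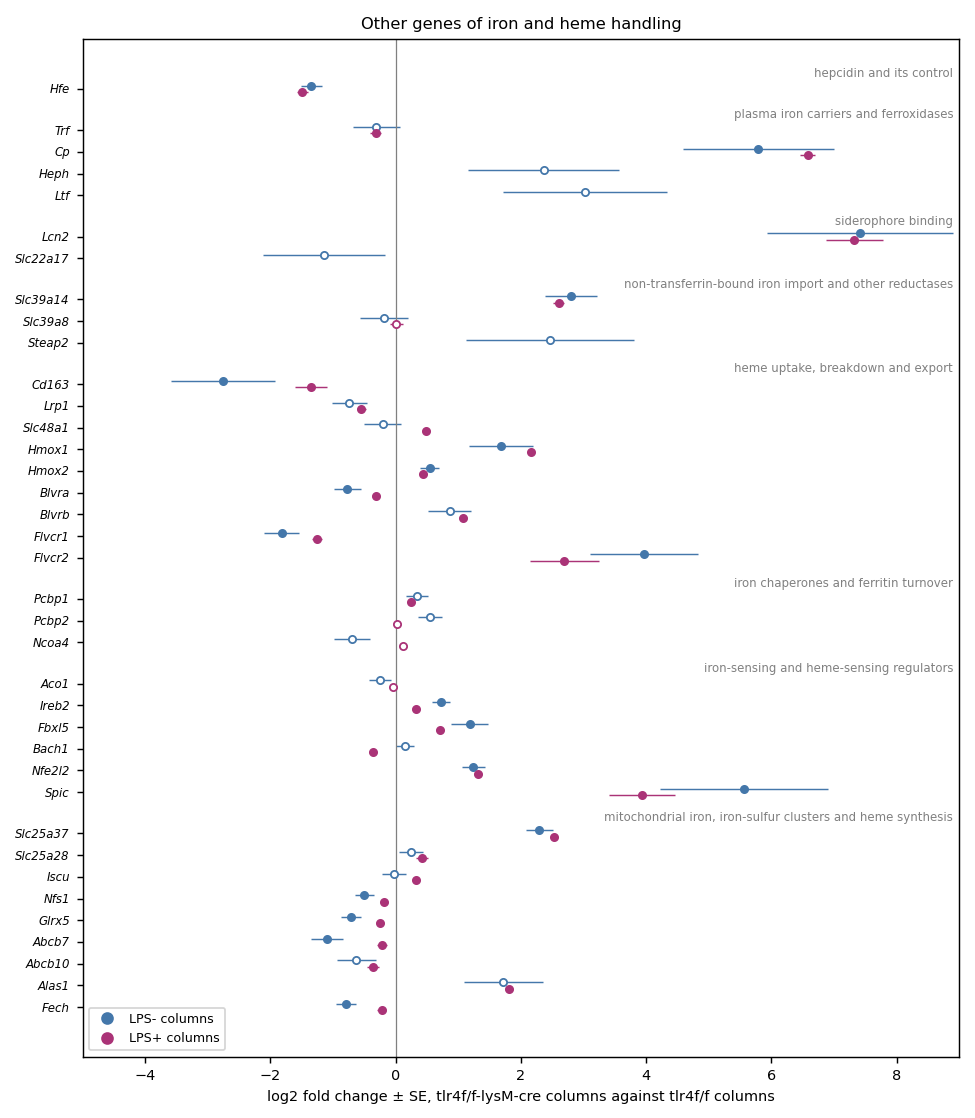
Log2 fold change with its standard error for tested genes of the wider iron and heme list, tlr4f/f-lysM-cre against tlr4f/f columns, under the LPS- headings (blue) and the LPS+ headings (purple), with filled points for an adjusted p below 0.05 and genes grouped by role. Lcn2 and Cp lie farthest to the right, at 7.41 and 5.79 under LPS- and 7.32 and 6.58 under LPS+, and Cd163 lies farthest to the left at -2.76 under LPS-.

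Over the 12 libraries, the genes whose log2 CPM was most like each member were found among 9899 genes of at least 5 CPM on average. The libraries share 4 groups, so that such likeness mostly restates the group pattern, and no test was made. For Steap4 they were Cxcl11 (Pearson r 0.995), Foxp4 (0.993) and Junb (0.992), and for Steap3 Gng2 (0.997), Erp29 (0.988) and Cln6 (0.988). Slc11a2 was followed by Batf (0.99) and Slc31a2 (0.99), Slc11a1 by Antxr1 (0.981), Igfbp7 (0.965) and Pilrb1 (0.964), and Fth1 by Il13ra1 (0.985), Arhgef37 (0.984) and Naip2 (0.978). Likeness was lower for Ftl1, with Igf1 (0.926) and Ppm1m (0.924) first, for Slc40a1, with Kdelr2 (0.959), Nop14 (0.916) and Dusp6 (0.911), and for Tfrc, with Myh9 (0.908), Akr1b8 (0.9) and Nqo1 (0.894).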

How the data were processed

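RNA of 12 BMDM libraries was sequenced as paired reads of 150 bases. Per the labels and the paper's methods, the authors trimmed reads with Trimmomatic 0.36, used HISAT2 for alignment to mm10 and HTSeq for counting. The deposited values are raw counts per transcript, for 115140 transcripts, without normalization. The transcript with the highest total stood for each gene, except that levels per kb and the ferritin ratio used the Fth1 mRNA of 942 bases in place of a non-coding entry of 1511 bases. The ratio with that entry was added after the data were seen. Counts were fitted with edgeR 4.0.16 under R 4.3.3 (robust quasi-likelihood test after filterByExpr and TMM scaling), each comparison on its own 6 libraries and the interaction on all 12, with Benjamini-Hochberg adjustment over all genes tested. The counts carry no molecular identifiers, so intervals cover counting error only. The labels name no separate mice or cultures, so p-values measure the spread between these libraries. Alternatives were DESeq2 1.42.0, limma 3.58.1 voom, RLE factors, other filters (none beyond 1 count, or 10 counts in every library), summed transcripts, a single fit, DEG criteria, a replicate block and each library left out. Deviations of same-numbered libraries correlated above 0.1 for all 3 numbers between the LPS+ column groups (r 0.308, 0.318 and 0.53 over 9899 genes). Between the LPS- column groups r was 0.57, 0.354 and 0.0728, and no other pair of groups passed for all 3 numbers. No label says what a number marks. The reported fits left libraries unpaired, and the replicate block, which pairs them by number, is an alternative. In simulated data, 200 genes of more than 5 CPM on average moved by 2 on the log2 scale. The test recovered 76% of them among the LPS- columns, on 14649 genes, with 8 false calls. Among the LPS+ columns it recovered 99%, on 14551 genes, with 23 false calls. These rates do not cover genes of lower level, such as Steap4 among the LPS+ columns (0.595 and 0.0556 CPM). Named genes were the 8 members, Tlr4, Lyz2 and Il1b, per role the 2 genes with the largest called difference in either contrast of the tlr4f/f-lysM-cre with the tlr4f/f columns, and the 3 genes most like each member. Hamp, Hmox2, Ireb2, Fbxl5, Bach1 and Aco1 were added after their values were seen. The members and lists were chosen with earlier results of these data known. The results of 2 genes that the rule names are not reported here.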

Additional observations from a re-analysis of the deposited data

Results flagged for a closer look

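Steap4 was the member whose response to LPS differed between the genotypes, by the interaction term of the fit over all 12 libraries: its log2 LPS effect in tlr4f/f-lysM-cre minus that in tlr4f/f was -3.74 (SE 0.605, edgeR adjusted p = 0.008). The value is the same in both readings of the headings. As headed it sets a difference of -4.02 between the LPS+ and LPS- columns of tlr4f/f-lysM-cre beside tlr4f/f columns that both had 6 or fewer counts per library. With the headings exchanged it sets a rise of 3.37 in tlr4f/f-lysM-cre beside a rise of 7.09 in tlr4f/f. It could not be computed where 10 counts were required in every library, since Steap4 had between 2 and 6 counts in the tlr4f/f libraries.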

How the results depend on the processing

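Each of the 6 counts of members called was within 1.5 times its value, or equal to it, under DESeq2, limma voom, RLE factors, no filter beyond 1 count, summed transcripts and the replicate block, and no called member changed direction under any alternative. With the replicate block, 4 members were called among the LPS- columns and 7 among the LPS+ columns. The share of all genes called was taken for the reported fits only. Counts of members under an alternative therefore have no such share beside them. The DEG criteria left 3 of the 5 members among the LPS+ columns. Requiring 10 counts in every library left 0 members with a called interaction, because Steap4 was no longer tested. Leaving out each library gave 0 to 1 members between the tlr4f/f columns, against 0 reported, and 1 to 4 between the tlr4f/f-lysM-cre columns, against 1.

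Over all alternatives, 35 values of members changed sign, none of them called in the reported fit. Among the LPS- columns Tfrc became 0.053 with DESeq2 and with RLE factors and 0.0038 with 10 counts required, and ran from -0.40 to 0.35 when a library was left out. Among the LPS+ columns Tfrc ran from -0.065 to 0.26. Between the tlr4f/f columns, Fth1 became -0.013 in the single fit. Libraries left out there gave Slc40a1 -0.86 to 0.15, Tfrc -0.58 to 0.013, Slc11a2 -0.37 to 0.091, Fth1 -0.12 to 0.090, Ftl1 -0.11 to 0.087 and Steap3 -0.30 to 0.060. Between the tlr4f/f-lysM-cre columns, Slc40a1 became 0.40 with limma voom and 0.31 with the replicate block. Libraries left out there gave Slc40a1 -0.52 to 0.27, Tfrc -0.53 to 0.12 and Steap3 -0.091 to 0.45. For LPS+ tlr4f/f-lysM-cre against LPS- tlr4f/f they gave Tfrc -0.48 to 0.095 and Slc11a1 -0.0010 to 0.55. For the interaction they gave Slc40a1 -0.15 to 0.84, Tfrc -0.23 to 0.52, Slc11a1 -0.11 to 0.44, Slc11a2 -0.49 to 0.029 and Fth1 -0.20 to 0.021. Apart from the untested Steap4, the cause was not tested. Between the tlr4f/f-lysM-cre columns, Slc40a1 at -0.52 and Steap3 at 0.45 were called without LPS- tlr4f/f-lysM-cre replicate 2. Steap4 is limited by 2 to 6 counts per tlr4f/f library.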
